A study of Mus musculus with 6 samples.

Results

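The genes described here encode the proteasome of mouse liver: the subunits of its core and regulatory particles, its activators and inhibitor, and the chaperones that assemble it. They were chosen by name. A row of the gene table was taken when protein_coding was among its transcript types and its symbol was Psm followed by a letter from a to g and a number. Of 53 rows whose names matched, 49 had that type, 4 being pseudogenes. The immunoproteasome genes Psmb8, Psmb9 and Psmb10 were left out, and the 46 remaining genes are the members, of 30889 genes in all. They comprise 15 core particle genes, 17 regulatory particle genes, 6 activators and inhibitors and 7 assembly chaperones. The last member, Psmc3ip, is a factor of meiotic recombination that carries the name without being a proteasome subunit. Psmb11, the core subunit of the thymus, has no row in the table.

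RNA from liver tissue was sequenced after oral treatment for 14 days. The 3 control libraries came from mice given phosphate buffered saline, and the 3 extract libraries from mice given an aqueous extract of Emilia sonchifolia, a herb of the daisy family. Strain, genotype, sex, age and dose are not given in the sources used here, nor is it said that each library is a separate animal. The p-values thus rest on how much these libraries vary, part of which may be technical.

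The proteasome degrades proteins that carry a chain of ubiquitin. Its core particle is a barrel of stacked alpha and beta rings with the proteolytic sites inside, closed at the ends by the alpha rings. The regulatory particle sits on the barrel: its base unfolds the substrate with a ring of ATPases, and its lid removes the ubiquitin. Other caps, the activators, can take its place, and dedicated chaperones put the rings and the base together. In mammalian cells the transcription factor Nfe2l1 raises the subunit genes together when proteasome activity is short.

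Libraries held between 51219533 and 61432016 estimated counts. The members took 0.262% to 0.269% of the counts in control and 0.254% to 0.258% in extract. Across genes, libraries correlated at r = 0.959 to 0.968 between groups, 0.972 to 0.984 within control and 0.987 to 0.99 within extract, on the log2 FPKM scale. Transcripts of blood cells and of Kupffer cells, macrophages that live in the liver, were lower with the extract: 7 of 7 erythroid markers, 7 of 8 of neutrophils and monocytes and 7 of 7 of Kupffer cells. The summed FPKM of the Kupffer list went from 379 to 399 in control to 228 to 238 in extract, and that of the erythroid list from 1272 to 1617 to 198 to 236. In bulk tissue, fewer cells of a type and less RNA per cell cannot be told apart. Hepatocyte markers were present in every library, with albumin (Alb) at 25373 to 33353 FPKM. Of these 5 markers 2 were called higher (Cps1 and Cyp2e1) and 2 lower (Apoa1 and Ttr), and Alb was not called. Of 5 markers of the sinusoidal endothelium 4 were lower and 0 higher. Over all genes tested 14.2% were called higher and 12.8% lower. Control 3 stood apart from the other controls in 2 marker lists: its muscle markers summed to 0.509 FPKM against 119 to 194 in the other 5 libraries, and its pancreas markers to 43.1 against 5.71 and 6.24 in controls 1 and 2 and 42.1 to 46.7 in extract. The part of these other cell types in the results below was not tested.

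Taken as a whole, the proteasome genes moved little and in both directions. At an adjusted p under 0.05 in edgeR's quasi-likelihood test, 7 of the 46 were higher with the extract and 8 lower, where 14.2% and 12.8% of the 18071 genes tested were called higher and lower (26.9% in either direction). The share of members called, 32.6%, was near that background. Among all genes of at least 5 FPKM on average, 27% were called higher and 18.9% lower, and of the 38 members at that level 13.2% and 18.4%. All 46 members passed the low-count filter. Their median log2 fold change was -0.01, against -0.02 over all genes. The range, leaving out Psmc3ip, was -0.36 to 0.42, and the largest change of a subunit or activator was 1.34-fold.

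By particle, the called core genes were all lower, while those of the regulatory particle went both ways. In the core particle 5 of 15 genes were lower and 0 were higher, with a median log2 fold change of -0.09. In the regulatory particle 3 of 17 were higher and 2 lower, with a median of 0.03, which turned to between -0.03 and -0.01 when the libraries were scaled by totals, by upper quartiles or as FPKM without TMM factors. Of the 6 activators and inhibitors 3 were higher and 0 lower, and of the 7 chaperones 1 was higher and 0 lower. The background to these counts was 14.2% of all genes tested higher and 12.8% lower. Among genes of at least 5 FPKM it was 27% and 18.9%. At an unadjusted p under 0.05 in edgeR, 0 core genes were higher, 1 activator lower (Psme1) and 0 chaperones lower, and at an adjusted p under 0.05 DESeq2 gave 0 in all 3 cases. The difference between particles was not tested. It goes along with transcript length, whose values close the account of the members. In TMM-scaled CPM (counts relative to the library total), groups did not overlap for 7 core genes that were lower and 2 that were higher. Over all genes, 22.5% were lower and 22.2% higher without overlap (44.7% in either direction).

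**Figure D1:**
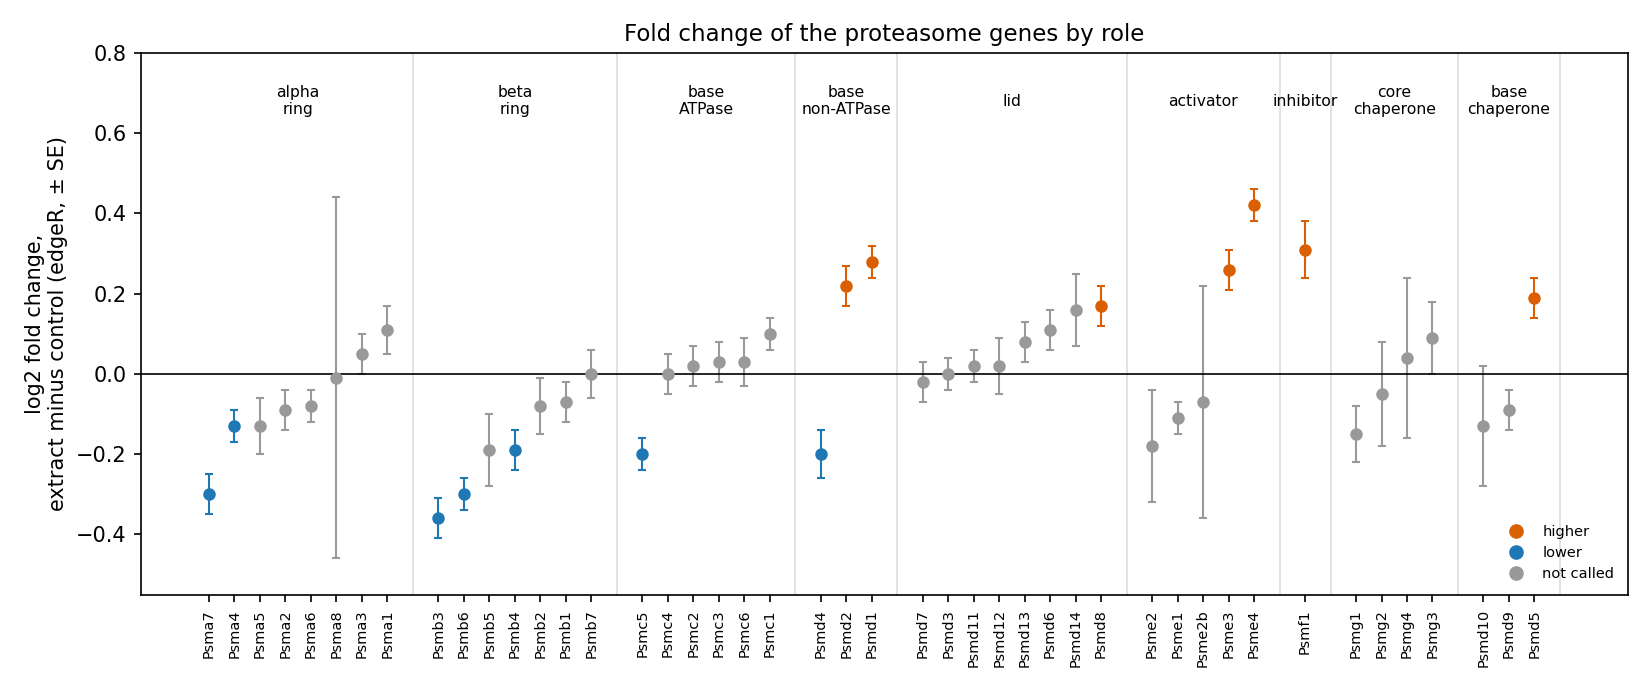
Log2 fold change (extract minus control, edgeR, with its standard error) of 45 proteasome genes, arranged by role along the horizontal axis, with genes called higher in orange, lower in blue and not called in grey. The 5 core genes past the threshold lie below 0 and the 3 activator and inhibitor genes past it lie above; Psmc3ip, at -1.52, is not drawn.

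Within the core particle, the genes that fell belong to both rings. In the values that follow, 3 numbers are always those of libraries 1, 2 and 3 of a group. FPKM is a level per transcript length and fragments mapped. A fold change is of TMM-scaled counts and is not the ratio of the FPKM printed beside it, because the deposited FPKM of a whole library sum to 346373 to 354060 in control and to 331828 to 339695 in extract. Psmb3, a structural subunit of the beta ring, was at 23.0, 25.4 and 23.6 FPKM in control and at 18.0, 17.5 and 18.1 in extract. All 3 extract libraries lay below all 3 controls, and the log2 fold change was -0.36 ± 0.05 (SE, n = 3 per group; adjusted p = 0.00181, edgeR). This was the largest fall among the subunits.

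Psmb6 encodes the catalytic subunit that cuts after acidic residues. Its level was 37.6, 37.2 and 37.7 FPKM in control and 28.9, 29.6 and 29.3 in extract. The libraries of each group lay close together and the groups were well apart, with a log2 fold change of -0.30 ± 0.04 (SE; adjusted p = 0.00164, edgeR). Psmb4, another structural beta subunit, went from 39.0, 39.6 and 40.9 FPKM to 34.5, 34.2 and 31.5. Here extract 3 was the lowest, the groups did not overlap, and the log2 fold change was -0.19 ± 0.05 (SE; adjusted p = 0.0205, edgeR). In the alpha ring, which gates the barrel, Psma7 was at 29.7, 30.6 and 29.3 FPKM in control and 21.7, 24.02 and 24.1 in extract. Every extract library was below every control, and the log2 fold change was -0.30 ± 0.05 (SE; adjusted p = 0.00483, edgeR). Psma4, of the same ring, went from 40.3, 42.0 and 40.5 FPKM to 35.8, 35.9 and 35.6. Its groups were also apart, by a log2 fold change of -0.13 ± 0.04 (SE; adjusted p = 0.0333, edgeR).

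These calls did not all stand when a library was left out. That of Psma4 was lost without control 1, control 2, extract 1, extract 2 or extract 3 (edgeR adjusted p = 0.0536, 0.0945, 0.139, 0.123 and 0.0917) and without the low-count filter (adjusted p = 0.055, edgeR), and that of Psmb4 without extract 1, 2 or 3 (edgeR adjusted p = 0.0539, 0.0666 and 0.0853). The count of core genes lower was then 3 in place of 5 without any 1 of the 3 extract libraries, 4 without control 1 or control 2, and 5 without control 3.

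The other catalytic genes of the core did not pass the test. Psmb5, of the chymotrypsin-like site, was at 28.2, 31.7 and 35.0 FPKM in control and 28.9, 26.2 and 24.8 in extract. Control 1 lay below extract 1, so the groups overlapped, and the log2 fold change was -0.19 ± 0.09 (SE; adjusted p = 0.172, edgeR). Psmb7, of the trypsin-like site, was at 18.5, 16.9 and 17.0 FPKM in control and 17.6, 16.8 and 15.8 in extract. These ranges overlap, and the log2 fold change was 0.00 ± 0.06 (SE; adjusted p = 0.993, edgeR). Of the 3 catalytic genes, therefore, Psmb6 alone was called. Psma8, the alpha subunit of the testis, was at 0.0836 to 0.261 FPKM and is barely present in these livers.

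The remaining core genes were Psma1, Psma2, Psma3, Psma5, Psma6, Psmb1 and Psmb2, with control means of 11.2 FPKM (Psma3) to 48.4 FPKM (Psma6) and log2 fold changes from -0.13 (Psma5) to 0.11 (Psma1). None was called in edgeR as reported. In limma on filtered FPKM without TMM factors, Psma5 and Psma6 were called lower (limma adjusted p = 0.0354 to 0.0361 and 0.0224 to 0.023). Core genes lower numbered 7 in those fits. Summed over the 15 genes, core transcripts came to 383, 394 and 388 FPKM in control and 339, 338 and 334 in extract. The alpha ring contributed 183 to 187 FPKM in control and 164 to 165 in extract, and the beta ring 198 to 207 and 168 to 175. Neither ring's sums overlapped between groups.

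**Figure D2:**
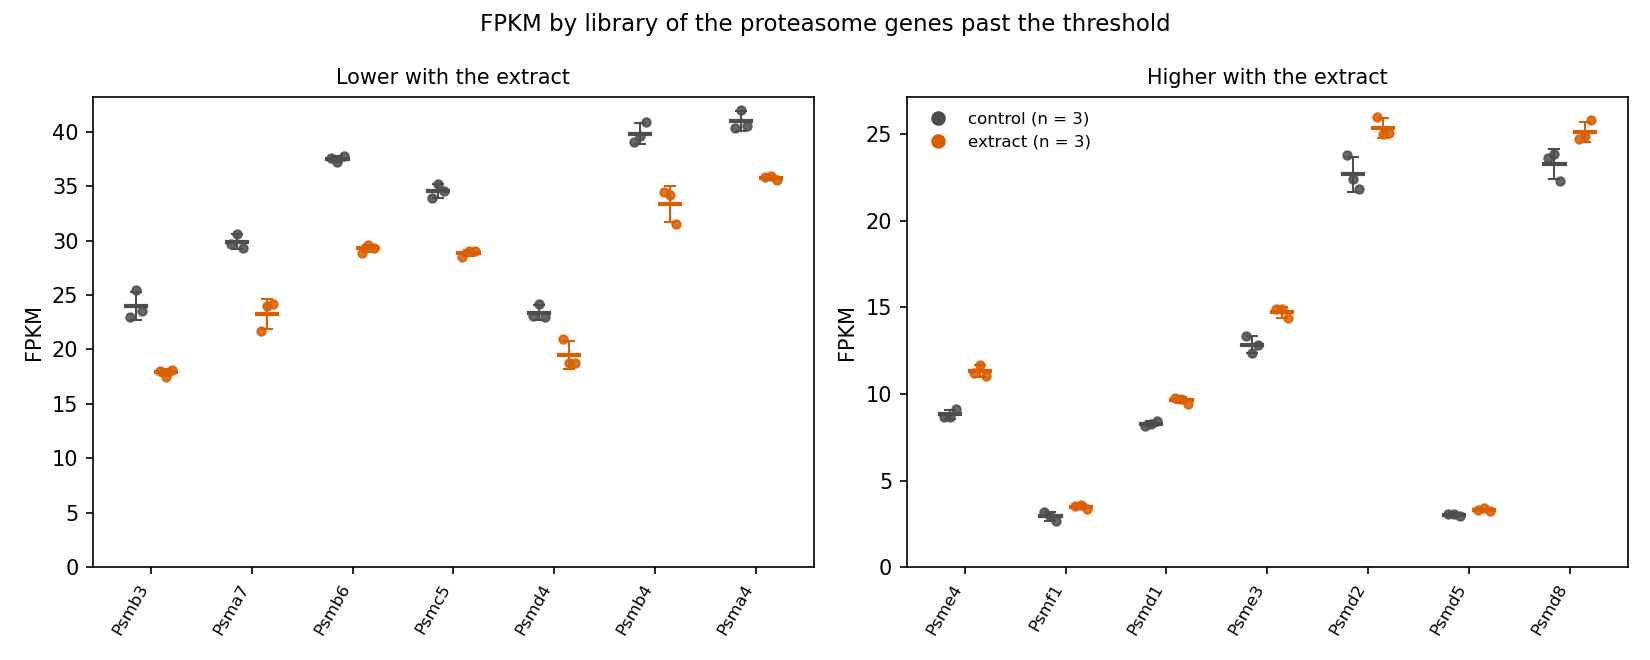
FPKM in each library of the 14 proteasome genes past the threshold, control in grey and extract in orange (n = 3 each; bars are the mean and SD), with the genes that were lower on the left and those that were higher on the right. The short-transcript genes Psmb3 and Psmb6 are among those on the left and the long-transcript gene Psme4 leads those on the right. The groups do not overlap for any of the 14. These genes were picked by the test on the same libraries, so the lack of overlap adds no support. In TMM-scaled CPM 44.7% of all genes do not overlap.

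In the regulatory particle the base was where most calls lay. Psmd1 and Psmd2 are the large scaffold subunits of the base, to which ubiquitin-binding proteins dock. Psmd1 was at 8.15, 8.24 and 8.45 FPKM in control and 9.79, 9.74 and 9.45 in extract. The groups did not overlap, and the log2 fold change was 0.28 ± 0.04 (SE; adjusted p = 0.00211, edgeR). Psmd2 went from 23.8, 22.4 and 21.8 FPKM to 26.02, 25.0 and 25.1. Control 1 was the highest control and lay below all of the extract libraries, with a log2 fold change of 0.22 ± 0.05 (SE; adjusted p = 0.0101, edgeR).

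Psmd4, the ubiquitin receptor of the base, went the other way. It was at 23.0, 24.2 and 22.9 FPKM in control and 20.9, 18.7 and 18.7 in extract. Extract 1 was nearest to the controls without reaching them, and the log2 fold change was -0.20 ± 0.06 (SE; adjusted p = 0.0301, edgeR). Of the 6 ATPases of the ring that unfolds the substrate, only Psmc5 was called. Its level was 33.9, 35.2 and 34.6 FPKM in control and 28.5, 29.0 and 29.0 in extract, with no overlap and a log2 fold change of -0.20 ± 0.04 (SE; adjusted p = 0.013, edgeR). The other 5 ATPase genes had log2 fold changes from 0.00 (Psmc4) to 0.10 (Psmc1). Psmc2, for example, was at 11.1 to 11.3 FPKM in control and 10.5 to 11.4 in extract, with a log2 fold change of 0.02 ± 0.05 (SE; adjusted p = 0.764, edgeR).

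Among the 8 lid genes, Psmd8 was called higher. It was at 23.6, 23.9 and 22.3 FPKM in control and 24.7, 24.9 and 25.8 in extract, a narrow gap between groups, with a log2 fold change of 0.17 ± 0.05 (SE; adjusted p = 0.0273, edgeR). Psmd14, the lid protease that removes ubiquitin from the substrate, was at 7.59, 8.08 and 9.43 FPKM in control and 8.86, 9.44 and 8.57 in extract. Control 3 lay among the extract libraries, and the log2 fold change was 0.16 ± 0.09 (SE; adjusted p = 0.232, edgeR). Without control 3 the gene was called higher, at 0.26 (adjusted p = 0.025, edgeR). The other 6 lid genes had log2 fold changes between -0.02 (Psmd7) and 0.11 (Psmd6), and none was called.

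Several calls of the regulatory particle were lost when a library was left out, which also leaves fewer samples to test. Psmd4 was lost without control 1, control 2, extract 2 or extract 3 (edgeR adjusted p = 0.056, 0.101, 0.121 and 0.108), Psmc5 without extract 1 or extract 2 (edgeR adjusted p = 0.0632 and 0.0531), and Psmd8 without control 2, extract 2 or extract 3 (edgeR adjusted p = 0.0616, 0.0576 and 0.097). The count of regulatory genes lower was 0 without extract 2 and 1 without control 1, control 2, extract 1 or extract 3. The count higher was 2 without control 2, extract 2 or extract 3. Psmd8 also missed the threshold when the libraries were scaled by totals or by upper quartiles and on the deposited FPKM (adjusted p = 0.083 to 0.126, edgeR and limma), as did Psmd2 in the FPKM fit without a filter (limma adjusted p = 0.0568).

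Summed FPKM of the 17 regulatory genes came to 327, 331 and 330 in control and 325, 324 and 322 in extract, also without overlap. The lower FPKM totals of the extract libraries, given above, enter these sums and those of the core. Per library, regulatory over core transcripts stood at 0.855, 0.841 and 0.85 in control and at 0.958, 0.956 and 0.965 in extract. The scaling of a library cancels in this ratio, but a trend on transcript length does not. The median length was 1165 bases in the core and 1819 in the regulatory particle. With the length trend removed, their median log2 fold changes were -0.02 and 0.04. The extract libraries were all higher, at 0.96 ± 0.00498 (SD, n = 3) against 0.849 ± 0.00693 (SD, n = 3). As a score over members chosen by name, the ratio was given no test.

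**Figure D3:**
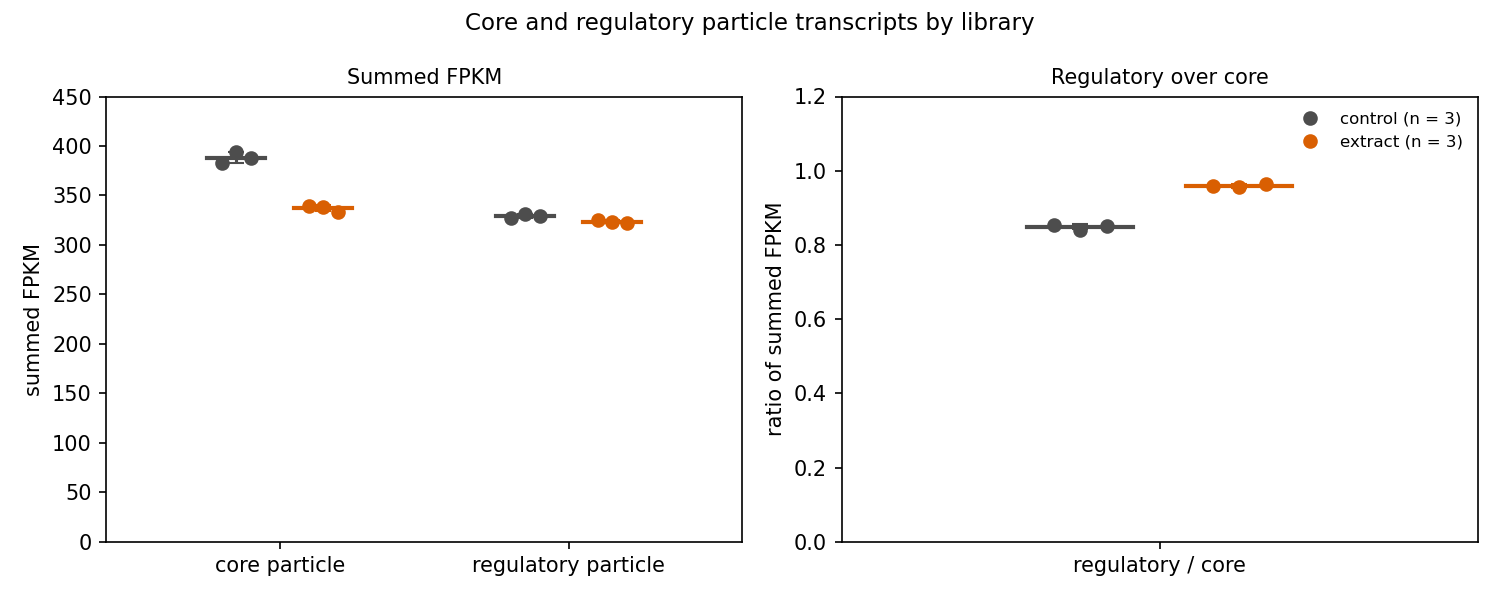
Summed FPKM of the 15 core and 17 regulatory particle genes in each library (left) and their ratio, regulatory over core (right), with control in grey and extract in orange (n = 3 each; bars are the mean and SD). The core sums fell from between 383 and 394 to between 334 and 339, and the regulatory sums from between 327 and 331 to between 322 and 325. The ratio went from at most 0.855 to at least 0.956.

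The activators showed the largest rise. Psme4 encodes a very large activator that caps the core without ubiquitin or ATP. It was at 8.68, 8.70 and 9.11 FPKM in control and 11.2, 11.7 and 11.1 in extract, the groups being well apart. Its log2 fold change of 0.42 ± 0.04 (SE; adjusted p = 0.000388, edgeR), 1.34-fold, was the largest rise among the members. Psme3, the activator of the nucleus, went from 13.3, 12.4 and 12.8 FPKM to 14.9, 14.9 and 14.4. All extract libraries were above all controls, with a log2 fold change of 0.26 ± 0.05 (SE; adjusted p = 0.00776, edgeR). Psmf1, named as an inhibitor of the core, was at 3.17, 2.97 and 2.66 FPKM in control and 3.54, 3.60 and 3.36 in extract. The groups did not overlap, and the log2 fold change was 0.31 ± 0.07 (SE; adjusted p = 0.0147, edgeR). This call was lost without control 2 or extract 2 (edgeR adjusted p = 0.0527 and 0.0559) and in the FPKM fit without a filter (limma adjusted p = 0.102).

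Psme1 and Psme2 form the activator that interferon induces and that serves antigen presentation. Psme1 was at 46.8, 48.5 and 44.9 FPKM in control and 40.5, 42.7 and 41.2 in extract. The FPKM ranges were apart, but the log2 fold change of -0.11 ± 0.04 did not pass (SE; adjusted p = 0.0886, edgeR). It was called lower when libraries were scaled by totals or upper quartiles or on FPKM as deposited (-0.17 to -0.15; edgeR and limma adjusted p = 0.025 to 0.0423). Psme2 was at 24.9, 19.0 and 26.01 FPKM in control and 21.6, 20.8 and 16.8 in extract, with overlap and a log2 fold change of -0.18 ± 0.14 (SE; adjusted p = 0.358, edgeR).

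The value of Psme2 is uncertain because Psme2b is a near-identical copy of it. Psme2b was at 19.6, 37.1 and 20.5 FPKM in control and 20.3, 17.8 and 31.9 in extract. In each group the library with the highest Psme2b, control 2 and extract 3, was the one with the lowest Psme2. With the counts of both genes added, a setting chosen after seeing the data, the log2 fold change was -0.14 with an SE of 0.05 (adjusted p = 0.0887, edgeR). Leukocytes and Kupffer cells are among the cells that express this activator, but bulk tissue does not give its level by cell type. Their marker lists fell in the same libraries as given above, and their part in these values was not tested.

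Among the assembly chaperones only Psmd5 was called. It helps to build the base, and was at 3.07, 3.08 and 2.95 FPKM in control and 3.28, 3.39 and 3.27 in extract. The groups did not overlap and the log2 fold change was 0.19 ± 0.05 (SE; adjusted p = 0.0302, edgeR), but the call held in few settings. It was lost without control 1, 2 or 3 (edgeR adjusted p = 0.0503, 0.0718 and 0.0644), without extract 2 or 3 (edgeR adjusted p = 0.0802 and 0.0809), and with libraries scaled by totals or upper quartiles or on FPKM as deposited (edgeR and limma adjusted p = 0.0734 to 0.171). Psmd10, the base chaperone also known as gankyrin, was at 5.35, 4.99 and 5.33 FPKM in control and 5.36, 3.61 and 4.74 in extract, with a log2 fold change of -0.13 ± 0.15 (SE; adjusted p = 0.571, edgeR). Psmg1, which pairs up to guide the alpha ring, was at 9.27, 10.05 and 9.58 FPKM in control and 7.89, 8.70 and 8.42 in extract. Its FPKM ranges were apart, while the log2 fold change of -0.15 ± 0.07 did not pass (SE; adjusted p = 0.167, edgeR); in the limma fits on filtered FPKM as deposited it was called lower (limma adjusted p = 0.0321 to 0.0329).

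Psmc3ip, the recombination factor, was at 0.712, 0.759 and 1.02 FPKM in control and 0.212, 0.318 and 0.271 in extract, with a log2 fold change of -1.52 ± 0.29 (SE; adjusted p = 0.00602, edgeR). This is the largest change of any member, at a level near the bottom of the range. Of its exon bases 21.2% overlap the gene Mlx on the opposite strand, and the use of strand in counting is not stated, so reads of both cannot be told apart there. In all, 13 of the 46 members share exon bases with another gene. For the other called members the share was at most 4.8%, in Psma4. Of the 4 pseudogenes left out, Psma5-ps was at 1.31 to 2.85 FPKM, and the others reached at most 0.0655.

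Transcript length went along with the direction of change in the members and in the rest of the genes. The 7 called subunits and activators that were lower had longest coding transcripts of 766 to 1756 bases (median 1165), and the 7 that were higher 1983 to 6491 bases (median 3112). The median was 1165 bases in the core and 1819 in the regulatory particle. Over 38 members of at least 5 FPKM, log2 fold change correlated with log2 length at Pearson's r = 0.688 and Spearman's rho = 0.635. Over all 4454 genes at that level with a coding length the values were 0.272 and 0.38. Genes are not independent replicates, and all share the same 6 libraries, so these describe the comparison without a test.

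Within ranges of length, again over genes of at least 5 FPKM, the members' share of calls lay near that of the other genes in some ranges and not in others. Of all genes up to 800 bases long 43.2% were called lower, and 2 of the 3 members of that length, Psmb3 and Psmb6. Between 800 and 1200 bases 32.5% of all genes were lower, and of 11 members 3, the core genes Psma7, Psmb4 and Psma4. The median log2 fold change in that range was -0.15 for all genes and -0.13 for the members. Between 1200 and 1600 bases the members lay above the other genes, at a median of 0.05 against -0.07, with 1 of 8 lower where 25.7% of all genes were and 0 of 8 higher where 15.4% were. Between 1600 and 2000 bases 1 of 7 members was higher and 1 lower, where 19.2% and 18.4% of all genes were, with medians of 0.02 and -0.01. Between 2000 and 3000 bases 28.6% of all genes were higher, and 2 of 7 members, with medians of 0.06 and 0.03. The single members between 3000 and 4000 bases, Psmd1, and above 6000 bases, Psme4, were both higher, at 0.28 and 0.42, beyond the medians of 0.10 and 0.24 of all genes there.

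**Figure D4:**
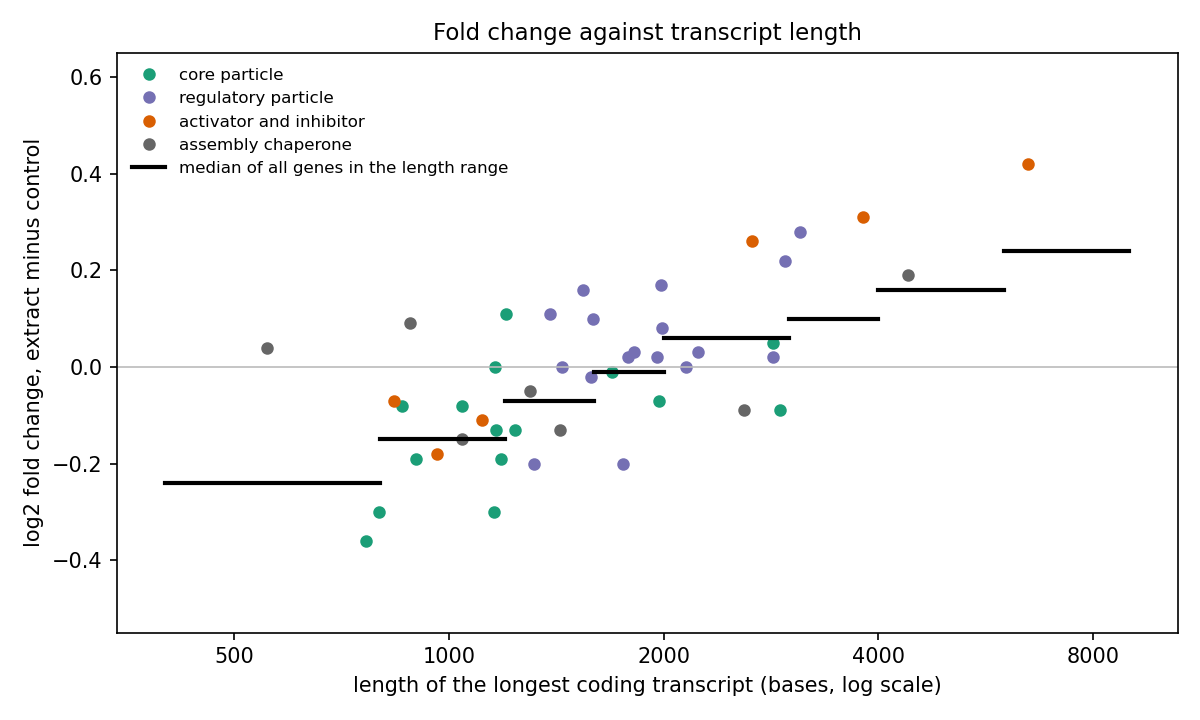
Log2 fold change (extract minus control) of each proteasome gene against the length of its longest coding transcript in bases on a log scale, coloured by particle, with black lines at the median of all genes of at least 5 FPKM in each length range. The line climbs from -0.24 for the shortest genes to 0.24 for the longest. Members up to 1200 bases lie mostly below 0 as the line does, while those of 1200 to 1600 bases, with a median of 0.05, lie mostly above it, and so does Psme4 at 0.42.

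With the trend on length taken out of each library, a fit chosen after seeing the data, the core particle had 3 genes lower and 1 higher and a median log2 fold change of -0.02. In that fit 18.4% of 14614 genes were called lower and 10.5% higher (28.9% in either direction). Of the 4454 genes of at least 5 FPKM on average in it, 926 were called lower and 989 higher. Psma7 was at -0.19 and Psmb3 at -0.17 (edgeR adjusted p = 0.0304 and 0.0259), and Psma2, not called before, at -0.16 (adjusted p = 0.032, edgeR). Psmb6, Psmb4 and Psma4 were no longer called, at -0.11, -0.09 and -0.02 (edgeR adjusted p = 0.121, 0.223 and 0.681). Psma1 was called higher, at 0.21 (adjusted p = 0.0267, edgeR).

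In the same fit the regulatory particle had 5 genes higher and 1 lower, with a median of 0.04. Psmd1 and Psmd2 stood at 0.20 and 0.14 (edgeR adjusted p = 0.00765 and 0.0479) and Psmd8 at 0.16 (adjusted p = 0.0326, edgeR). Psmd6 of the lid and the ATPase gene Psmc1 joined them at 0.18 and 0.14 (edgeR adjusted p = 0.0166 and 0.0404). Psmd4 stayed lower, at -0.19 (adjusted p = 0.0374, edgeR), and Psmc5 was lost, at -0.11 (adjusted p = 0.0684, edgeR). Psme3 and Psme4 were both called, at 0.19 (edgeR adjusted p = 0.0172 and 0.00915), so that the difference for Psme4 was less than it was before the correction, while Psmf1 and Psmd5 were lost (edgeR adjusted p = 0.0693 and 0.556). With a trend on GC content also removed, Psmd2 and Psmd4 missed the threshold (edgeR adjusted p = 0.0599 and 0.0534). Of the 15 called members, Psma7, Psmb3, Psmc3ip, Psmd1, Psme3 and Psme4 kept their call and direction in all 20 alternatives run for single genes.

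Other genes that work with the proteasome were taken from lists by function. Of 36 such genes 12 were higher and 5 lower, against the same background of 14.2% and 12.8%. Among all genes of at least 5 FPKM on average, a level many of the 36 reach, 27% were higher and 18.9% lower. With the length trend removed 6 of the 36 were higher and 4 lower, where 10.5% and 18.4% of all genes were. At 5 FPKM or more, 989 of 4454 genes were higher and 926 lower in that fit. The catalytic genes of the immunoproteasome, which replace those of the core under interferon, were not called in the comparison as reported. Psmb8 was at 15.1 to 16.5 FPKM in control and 14.8 to 15.5 in extract, with a log2 fold change of 0.00 ± 0.05 (SE; adjusted p = 0.972, edgeR). Psmb9 and Psmb10 had log2 fold changes of 0.17 ± 0.07 and -0.13 ± 0.06 (SE; edgeR adjusted p = 0.125 and 0.154). Psmb9 was called higher without the length trend (0.25; adjusted p = 0.04, edgeR) and without the length and GC trends (0.27; adjusted p = 0.0221, edgeR), and Psmb10 lower in limma on filtered FPKM without TMM factors (-0.19 to -0.18; adjusted p = 0.0421 to 0.0426, limma). The summed share of these genes among the 6 catalytic genes was 34.7%, 35.3% and 32.8% of FPKM in control and 35.6%, 37.5% and 37.9% in extract. Psmb5, Psmb6 and Psmb7 together summed to 84.3 to 89.8 FPKM in control and 69.9 to 75.4 in extract. Their longest coding transcripts, of 798 to 1160 bases, are shorter than the 1311 to 1628 bases of the immunoproteasome genes. The trend on length thus enters this share, which was given no test.

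Of 7 other subunits and bound factors named outside the Psm series 1 was higher and 1 lower, and of 4 assembly factors 1 was higher and 1 lower, near the background. Sem1, a small lid subunit, was at 8.90, 8.99 and 8.65 FPKM in control and 7.18, 6.63 and 6.91 in extract. The groups did not overlap, and the log2 fold change was -0.29 ± 0.06 (SE; adjusted p = 0.00638, edgeR). The ubiquitin receptor Adrm1 and the core assembly factor Pomp were not called, at -0.05 ± 0.06 and -0.07 ± 0.06 (SE; edgeR adjusted p = 0.577 and 0.418). Pomp was called lower without the length trend (-0.18; adjusted p = 0.0445, edgeR) and without the length and GC trends (-0.21; adjusted p = 0.027, edgeR). Nfe2l1, the transcription factor of the subunit genes, was at 18.2, 17.2 and 17.9 FPKM in control and 20.1, 19.7 and 20.8 in extract. All extract libraries were higher, with a log2 fold change of 0.24 ± 0.05 (SE; adjusted p = 0.00802, edgeR), which became 0.08 with the length trend removed (adjusted p = 0.2, edgeR). Its relative Nfe2l2 was at 15.4 to 16.9 FPKM in control and 16.05 to 17.4 in extract, and was not called (adjusted p = 0.21, edgeR).

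Ubb encodes ubiquitin as a chain of repeats. It was at 343, 356 and 368 FPKM in control and 280, 276 and 289 in extract, a log2 fold change of -0.27 ± 0.05 (SE; adjusted p = 0.00337, edgeR). All extract libraries lay below all controls. Reads from a repeated sequence can be counted for other genes that hold it, so this level is uncertain. The 3 genes singled out next were chosen after their values were seen. Vcp, the ATPase that draws ubiquitinated proteins out of membranes and complexes, went from 27.9, 25.4 and 23.8 FPKM to 38.4, 40.1 and 40.0. Nploc4, its cofactor, went from 11.02, 10.5 and 10.4 to 14.9, 15.5 and 14.4. Their log2 fold changes of 0.68 ± 0.06 and 0.55 ± 0.05 (SE; edgeR adjusted p = 0.000168 and 0.000135) exceeded those of every proteasome subunit. Ufd1, which binds Nploc4, was at 5.15 to 5.88 FPKM in control and 4.95 to 5.22 in extract and was not called (adjusted p = 0.476, edgeR). The proteins of the 7 shuttle genes bring ubiquitinated substrates to the proteasome. Of these genes 5 were higher and 0 lower, with a median log2 fold change of 0.22. Over all genes tested 14.2% were higher, and 27% of those of at least 5 FPKM on average. After the length correction 2 shuttle genes were higher and 1 lower, where 10.5% and 18.4% of all genes were. At 5 FPKM or more, 989 of 4454 genes were then higher and 926 lower.

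**Figure D5:**
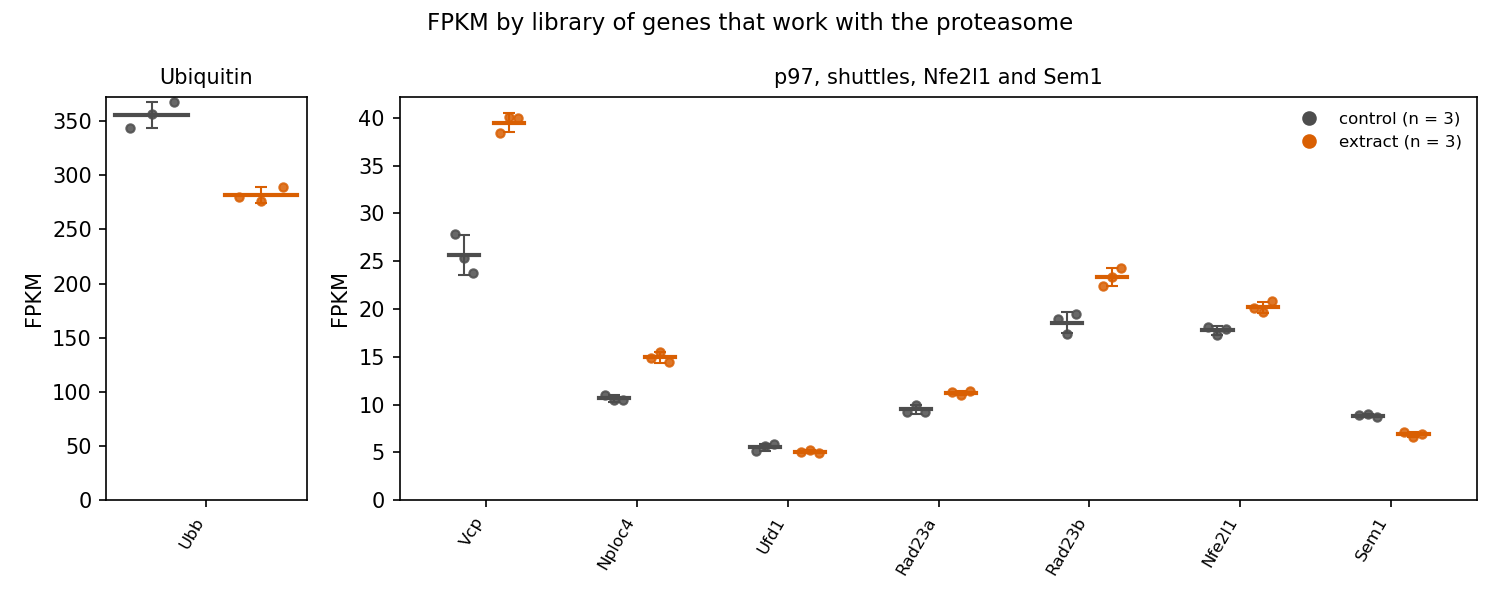
FPKM in each library of genes that work with the proteasome, control in grey and extract in orange (n = 3 each; bars are the mean and SD), with Ubb on the left and Vcp, its cofactors, the Rad23 shuttles, Nfe2l1 and Sem1 on the right. Ubb is lower with the extract, and Vcp reaches 38.4 to 40.1 from 23.8 to 27.9.

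The genes whose levels were most like the mean of the core across the 6 libraries were Fth1 (ferritin heavy chain, Pearson's r = 0.999), Rida (0.999), Arpc3 (0.998), Prdx4 (0.998) and BC024386 (0.997), of 4843 candidates. The 6 libraries fall into 2 groups, and all 5 genes were lower in every extract library than in every control.

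Motifs known from promoters of subunit genes were looked for in the RefSeq sequence around the start of each gene (250 bases before to 50 after, build GRCm38.p6), which held 38 of the 46 members. The core of the antioxidant response element, TGACNNNGC on either strand, was found in 6 of 38 members (15.8%) and in 14% of 27025 genes. CCAAT on either strand was found in 13 members (34.2%) and 41.1% of genes. Among the called members it was in 4 of 8 that were lower and 1 of 7 that were higher. The 4 include Psmc3ip, which is not a proteasome subunit, and Psma7. For Psma7, and for Psma4 and Psmc5, the last 30 bases of the sequence were not found in an annotated transcript of the gene. A match is a description of the letters and not a site of binding. The examples below lie upstream of called genes of either direction, printed in the direction of the gene, with the motif in capitals (ATTGG is CCAAT on the other strand).
Psmb3 (lower), chr11:97703333-97703369, plus strand: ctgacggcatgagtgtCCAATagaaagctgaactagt
Psmd4 (lower), chr3:95042689-95042725, minus strand: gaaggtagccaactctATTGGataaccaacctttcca
Psme3 (higher), chr11:101316183-101316212, plus strand: ccccggagtgccggcgATTGGctgtgacgc
Psmb6 (lower), chr11:70525332-70525356, plus strand: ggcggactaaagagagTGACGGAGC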

How the data were processed

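A single table, per the file headers, gives each library 2 columns. The first holds the estimated counts deposited per gene, all whole, so that none was rounded; low values pile up at 4 (6292 entries against 4117 at 3 and 2133 at 5). The second holds FPKM, which the authors scaled to gene length and mapped fragments. The submitters' processing notes list edgeR, StringTie 1.3.4d, HISAT2 2.0.4 and cutadapt 1.9 without roles. No genome build is named there, and 99.7% of gene identifiers are in GENCODE M21 (GRCm38). Another 6 columns of per-sample values match no sample and were not used.

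The test was that of edgeR 4.0.16 (R 4.3.3) on 18071 genes kept by filterByExpr, with TMM factors and the two-sided quasi-likelihood test, Benjamini-Hochberg adjusted over all genes at a threshold of 0.05. Standard errors follow from the fold change and F. Alternatives were limma 3.58.1 on log2(FPKM + 0.5), DESeq2 1.42.0, other scalings and filters, each library left out, a replicate block, and fits without the trend on transcript length or GC content (lowess per library, genes of at least 5 FPKM, span 0.4). The steps were tested on simulated data. The members and lists were chosen with earlier results of these data known. Named genes are the called members, a fixed set of subunits and partners, and the 5 genes most like the core mean. Some genes of the partner and marker lists are not reported here by name.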

Additional observations from a re-analysis of the deposited data

How the results depend on the processing

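No called member changed sign in any setting. Counts within 1.5 times of those reported are not listed. All genes called higher, 2561 as reported, numbered 1485 in limma on unfiltered FPKM, 1534 without the length trend and 1527 without the length and GC trends; all genes lower, 2309 as reported, numbered 1442 to 2153 with a library left out. The share of calls that were higher, 52.6% as reported, was 43.9% with upper quartile factors, 42.8% with library totals, 39.6% to 40.2% in limma on FPKM as deposited, 50.7% in limma on FPKM with TMM factors, and 36.4% and 35.8% without the length and the length and GC trends; the median of all genes moved by less than 0.1 throughout. With a library left out, core genes lower numbered 3 to 5, regulatory genes lower 0 to 2, chaperones higher 0 to 1 and partner genes lower 2 to 5. Without the length trend, and without both trends, core genes higher numbered 1, core genes lower 3, regulatory genes lower 1 and partner genes higher 6; regulatory genes higher numbered 5 without the length trend, where chaperones higher numbered 0. Regulatory genes higher numbered 1, and partner genes higher 7, in limma on unfiltered FPKM. With upper quartile factors, with library totals and in limma on FPKM as deposited, activators and inhibitors lower numbered 1 (Psme1) and chaperones higher 0, against 0 and 1 in limma on FPKM with TMM factors; chaperones lower numbered 1 (Psmg1) in limma on filtered FPKM as deposited at each pseudocount. Genes called in no setting could change sign elsewhere, as Psme2b, which ranged from -0.37 to 0.28. The chaperone median, -0.05 as reported, was 0.07 without control 2 and 0.02 without extract 2. Among member and partner genes called in any setting, values reversed only in the length and the length and GC fits. In these they were Psme1 0.01 and 0.03, Psma6 0.06 and 0.02, Ecpas -0.07 and -0.09, Ddi2 -0.14 and -0.18, and Zfand5 -0.01 and -0.03. These fits take out a trend on length; the cause of the other changes was not tested, save that a library left out leaves fewer samples. The replicate block gave 3 core genes lower, 1 regulatory gene lower and 0 chaperones higher, with 2044 genes higher and 1702 lower overall. Same-numbered libraries did not deviate together (r = -0.148, -0.0203 and -0.0981), and not every library correlated best with its own number, so the numbers were not taken as pairs. Sums and medians over members carry no test. Entries of a few counts may stem from a single fragment, and 0.0836 to 0.261 FPKM of Psma8 cannot show a change.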
